A study of Arabidopsis with 12 samples.

Results

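The response of the Arabidopsis seedling transcriptome to 2 h of shade was compared between the wild type Col-0 and the bzip59 mutant, gene by gene, as the interaction of genotype and light. The interaction is the shade effect in bzip59 (shade minus white light) minus the shade effect in Col-0, on log2(TPM + 1), where TPM is the length-scaled transcript abundance unit of the deposited table. A value of 1 therefore means that the shade-to-white-light ratio was about 2 times higher in the mutant, and more than 2 times for genes of few TPM, whose differences the added 1 shrinks. RNA came from whole seedlings that were 7 days old and had grown in continuous white light. The 4 groups of 3 libraries were Col-0 in white light, Col-0 after 2 h of shade, bzip59 (the insertion line SALK_024459) in white light and bzip59 after 2 h of shade, with a red to far-red ratio of 0.65 in the shade. All transcripts of a gene were summed, and 19693 of 32833 genes, those whose mean over the 12 columns was 1 TPM or more, entered the test. At that limit AT5G40100, with a mean of 0.999 TPM, lay just outside and AT1G09363, at 1 TPM, just inside. The mutant was represented by 1 insertion line, and separate cultures behind the 3 libraries of a group are not stated in the labels, so the p-values measure the spread between these libraries only.

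Shade avoidance starts when light filtered or reflected by leaves, poor in red and rich in far-red, shifts the photoreceptor phytochrome B to its inactive form. Phytochrome-interacting factors (PIFs), basic helix-loop-helix proteins that active phytochromes hold in check, then switch on homeodomain genes such as ATHB2, auxin synthesis genes of the YUCCA family and auxin-responsive genes, and stems and petioles elongate. The response is gated by the circadian clock, in which the morning proteins CCA1 and LHY and the evening protein TOC1 repress each other's genes. bZIP59 belongs to group I of the plant bZIP transcription factors and is known in Arabidopsis for its partnership with LBD proteins in callus formation. The interaction asks which of these genes respond to shade to a different extent when bZIP59 is reduced.

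The targeted transcript was measured first. bZIP59 stood at 17.5, 22.6 and 21.7 TPM in Col-0 under white light and at 26.3, 23.1 and 19.9 TPM in Col-0 in shade. In bzip59 it stood at 3.85, 5.47 and 3.12 TPM under white light and at 7.52, 6.15 and 8.32 TPM after shade. All 6 mutant libraries were below all 6 wild-type libraries, so the libraries match their genotype labels, and the transcript was reduced rather than absent. Shade raised the residual transcript in bzip59 by 0.71 on the log2 scale (adjusted p = 0.0309), against 0.16 in Col-0 (adjusted p = 0.675), and the interaction of 0.55 ± 0.57 (95% half-width) did not pass the test (adjusted p = 0.618).

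The deposited TPM columns summed to between 937165 and 955765 per library, and 18950 to 19689 genes reached 1 TPM in a library. Because TPM keeps no read depth, counting error is unknown here. 3 libraries stood apart. The second bzip59 white-light library had the lowest scaling factor (0.843 of a range up to 1.11, by the trimmed mean of M values, TMM), and in it longer genes were lower (Spearman correlation of a gene's deviation with its length -0.574, across genes). The first Col-0 shade library and the second bzip59 shade library were alike in having more dehydration and cold transcripts (1767 and 1643 summed TPM of that list, against 476 to 717 in the other 4 shade libraries) and fewer light-harvesting transcripts. Seed storage and late embryogenesis markers summed to 44.9 to 215 TPM in bzip59 in white light and 5.45 to 89.3 TPM in bzip59 in shade, against 4.26 to 19.3 TPM in Col-0. The value of 215 TPM was that of the first bzip59 white-light library. The part of this marker difference in the interactions below was not tested. Markers of green tissue, root and dividing cells, which whole seedlings contain, were detected, although EXPA7 was at 0 in 1 library. The 6 green tissue markers summed to 58595 to 64473 TPM in bzip59 in white light and 42011 to 53254 TPM in Col-0 in white light, which did not overlap, and to 45477 to 54878 TPM in the shade libraries.

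No gene passed the test of the interaction. In limma with Benjamini-Hochberg adjustment over 19693 genes, 0 genes (0%) had an adjusted p under 0.05 and 0 had one under 0.1; the smallest adjusted p was 0.155. At an unadjusted p under 0.05 there were 1577 genes (8.01%), of which 1299 (6.6%) had a higher interaction, meaning a more positive shade effect in bzip59, and 278 (1.41%) a lower one. At an unadjusted p under 0.01 there were 336 (1.71%). With 1 library left out, the counts at an unadjusted p under 0.05 ran from 859 to 2705 higher (the latter without the first bzip59 white-light library) and from 184 to 547 lower (the latter without the third Col-0 white-light library). This split followed the scaling of the libraries. With TMM factors, 660 genes (3.35%) were higher and 685 (3.48%) lower at the same unadjusted threshold, 1345 in all (6.83%), and still 0 passed the adjusted one. The median interaction over all genes was 0.15 on the TPM scale and 0.01 with TMM factors, so the values below are read against a centre of 0.15. The middle 90% of genes lay between -0.48 and 0.67.

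The precision of the contrast set what could be seen. The 95% interval of a gene's interaction had a median half-width of 0.58, and for 13247 genes (67.3%) the whole interval lay within 1 of 0 on the log2 scale. For the other genes the interval reached 1 or further from 0, so a difference of that size was not excluded with 3 libraries a group. This holds both for wide intervals and for large estimates, such as that of CCA1 (1.44 ± 0.60, adjusted p = 0.536). The intervals are per gene and not adjusted for the number of genes, so they do not show which differences the test could call.

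Over all tested genes the 2 shade responses, which share no libraries, had the same sign for 65.5%, with a Pearson r of 0.633 and least-squares slopes of 0.61 (bzip59 on Col-0) and 0.66 (Col-0 on bzip59). In Col-0, 1954 genes (9.92%) passed the test for shade, with 674 (3.42%) rising and 1280 (6.5%) falling, and in bzip59 2007 genes (10.2%) passed, with 1278 (6.49%) rising and 729 (3.7%) falling. These counts rest on single libraries: with 1 left out, Col-0 ran from 976 (without Col-0 shade 3) to 2424 (without bzip59 white light 2), and bzip59 from 871 (without bzip59 shade 1) to 3305 (without bzip59 white light 1). 1042 genes passed in both genotypes, 53.3% of the Col-0 genes and 51.9% of the bzip59 genes, and all 1042 moved in the same direction. No gene passed in opposite directions, although 1 did with TMM factors, quantile normalization, the length trend removed, a minimum mean of 5 TPM or the replicate block, 2 with TMM factors but without the second bzip59 white-light library, up to 3 with 1 library left out, and 8 with both unusual shade libraries left out. Across these 1042 genes, which are not independent replicates and were chosen for responding in both, the least-squares slope of the bzip59 effect on the Col-0 effect was 0.96 and that of Col-0 on bzip59 was 0.99 (Pearson r = 0.977).

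Their median rise was 0.97 in Col-0 and 1.12 in bzip59 over the 520 that rose, and their median fall was -1.08 in Col-0 and -0.94 in bzip59 over the 522 that fell. With TMM factors these became 1.02 against 1.03 and -1.03 against -1.04, so that the offset between genotypes on the TPM scale was within the change that scaling makes. 72 of the 1042 (6.91%) had an unadjusted interaction p under 0.05, beside 8.01% of all genes, and for 762 (73.1%) the interval lay within 1 of 0.

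Genes that passed in 1 genotype only were examined next. Of the 912 genes called in Col-0 alone, 817 (89.6%) had the same sign in bzip59, and of the 965 called in bzip59 alone, 870 (90.2%) had the same sign in Col-0, beside 65.5% of all genes. At an unadjusted interaction p under 0.05 there were 338 of the 912 (37.1%) and 273 of the 965 (28.3%), beside 8.01% of all genes; choosing genes by a pass in 1 genotype uses the libraries of the interaction and raises these shares. None of them passed the adjusted interaction test.

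**Figure D1:**
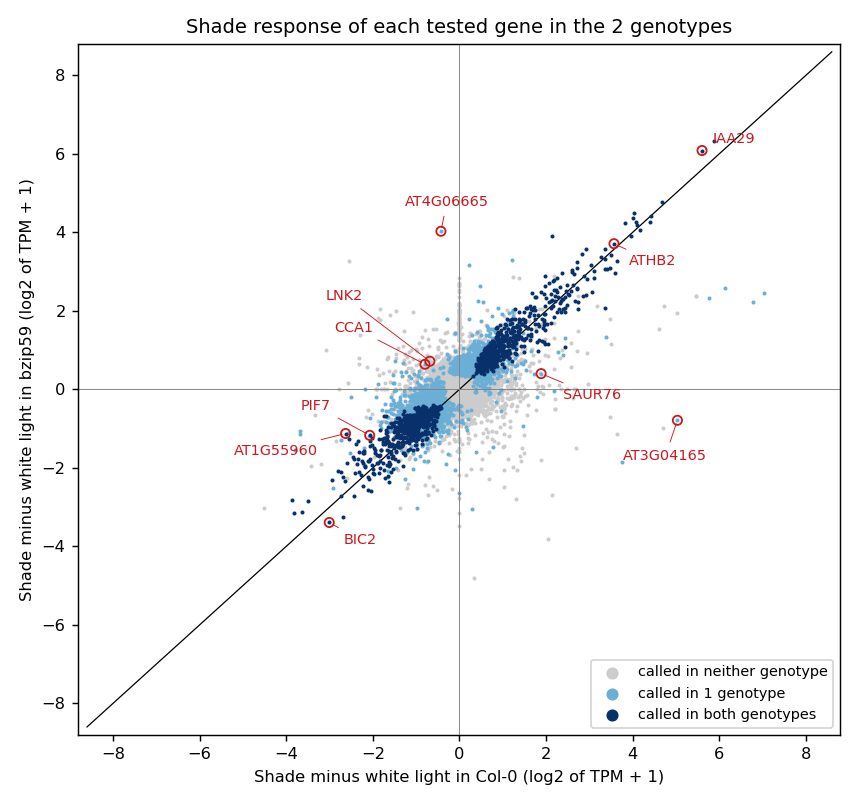
Shade minus white light in bzip59 (vertical axis) against the same in Col-0 (horizontal axis), both as log2 of TPM + 1, for each of the 19693 tested genes; the diagonal marks equal effects, colours mark genes called for shade in both, 1 or neither genotype (adjusted p under 0.05), and red rings mark named genes. The 1042 genes called in both lie along the diagonal from BIC2 to IAA29, while CCA1 and LNK2 lie left of and above 0 (lower in Col-0, higher in bzip59).

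The classic targets of shade signalling rose in both genotypes, and no interaction among them passed the test. The list of early shade genes held 24 genes, all tested. In Col-0 21 rose and 1 fell (3.42% and 6.5% of all genes), and in bzip59 20 rose (6.49% of all genes). Their median interaction was 0.03 (-0.06 with TMM factors), beside 0.15 over all genes (0.01 with TMM factors). Of the 24, 12 were above 0, beside 68.4% of all genes (11 with TMM factors, beside 51.6%). None was called, and 1 had an unadjusted p under 0.05, beside 8.01% of all genes. For 16 of the 24 the interval lay within 1 of 0, a share (16 of 24) near the 67.3% of all genes.

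ATHB2, a homeodomain-leucine zipper gene used as the standard reporter of low red to far-red light, rose by 3.57 in Col-0 and by 3.71 in bzip59, with an interaction of 0.14 ± 0.51. PIL1, a helix-loop-helix gene that responds within minutes of shade, rose by 3.96 and 3.90, with an interaction of -0.07 ± 0.58. YUC8, which makes auxin from indole-3-pyruvate, rose by 3.36 and 3.56 (interaction 0.20 ± 0.46).

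HFR1, whose product binds PIFs and restrains the response, stood at 5.89, 6.38 and 9.41 TPM in white-light Col-0 and at 56.0, 47.8 and 52.1 TPM in Col-0 shade. The mutant held it at 4.17, 5.15 and 4.79 TPM under white light and at 56.5, 42.3 and 60.9 TPM after shade. The shade groups overlapped and all mutant white-light libraries were below all wild-type ones, giving an interaction of 0.53 ± 0.55 (unadjusted p = 0.0566).

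BBX25 was the member of this list with an unadjusted p under 0.05. It encodes a B-box protein that dampens HY5 activity, and in the RefSeq gene order it is the direct neighbour of bZIP59. BBX25 stood at 48.5, 40.0 and 58.3 TPM in white-light Col-0 and fell to 33.8, 25.4 and 22.9 TPM in Col-0 shade (adjusted p = 0.0068). In bzip59 it stood at 38.5, 39.2 and 41.1 TPM in white light and 39.2, 42.0 and 42.7 TPM in shade. The 2 shade groups did not overlap, and the interaction was 0.88 ± 0.49 (unadjusted p = 0.0022, adjusted p = 0.536). BBX25 overlaps another locus in RefSeq, and the sources used here do not say whether counting used the strand, so reads of adjoining loci cannot be told apart.

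Auxin-responsive genes also rose in both genotypes. All 29 members of the list were tested, and 25 rose in Col-0 (3.42% of all genes) and 25 in bzip59 (6.49%). The median interaction was -0.06 (-0.17 with TMM factors, 0.12 without the second bzip59 shade library, 0.15 without that one and the first Col-0 shade library). Of the 29, 13 were above 0, beside 68.4% of all genes (10 with TMM factors, beside 51.6%), and none was called. IAA29, an Aux/IAA repressor gene, went from 1.26, 1.25 and 1.00 TPM to 85.3, 118 and 113 TPM in Col-0 and from 1.03, 0.58 and 1.01 TPM to 135, 103 and 143 TPM in bzip59. It rose by more than any other member of the list in both genotypes, by 5.60 and 6.09, and its interaction of 0.48 ± 0.52 had an unadjusted p of 0.0665.

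2 of the 29 members reached an unadjusted p under 0.05 (8.01% of all genes), in opposite directions. With TMM factors only the lower one, IAA5, did (6.83% of all genes). IAA5, another Aux/IAA gene, went from 0.42, 0.50 and 0.62 TPM to 18.4, 16.4 and 17.1 TPM in Col-0, and from 0.76, 0.86 and 1.09 TPM to 12.3, 11.9 and 17.7 TPM in bzip59. Its interaction was -0.64 ± 0.50 (unadjusted p = 0.0157, adjusted p = 0.586), with the mutant higher in every library before shade. GH3.5, which conjugates auxin to amino acids, had an interaction of 0.61 ± 0.55 (unadjusted p = 0.031, adjusted p = 0.61). It stood at 13.9 to 20.6 TPM in white-light Col-0 and at 8.61 to 14.2 TPM in bzip59 white light, and the shade groups of 76.3 to 88.4 and 75.5 to 88.7 TPM overlapped. The SAUR19 to SAUR24 genes of this list are near-identical copies between which reads can be split, so their single values are uncertain.

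The circadian clock list had the highest median interaction of the 19 pathway lists on the TPM scale and with TMM factors; the light-harvesting list was higher with the gene length trend removed or with quantile normalization, the light signalling list without both unusual shade libraries, and the sulfur list without the first Col-0 shade library. All 18 genes were tested and all 18 had an interaction above 0, beside 68.4% of all genes; with TMM factors 16 of 18 were above 0, beside 51.6%. The median was 0.52 (0.37 with TMM factors), and 9 of 18 had an unadjusted p under 0.05, all higher, beside 6.6% of all genes (6 with TMM factors, beside 3.35%), while 0 were called after adjustment over all genes. In Col-0, 10 of the 18 genes fell and 1 rose in shade (6.5% and 3.42% of all genes), with a median effect of -0.68. In bzip59, 3 fell and 1 rose (3.7% and 6.49% of all genes), with a median of 0.02. The clock list had been seen to differ in earlier results of these data, so its position among lists is a description.

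The genotypes were separated in white light. Summed over the 18 clock genes, Col-0 held 660, 657 and 698 TPM in white light and 416, 407 and 398 TPM in shade. The mutant held 456, 451 and 480 TPM in white light and 498, 403 and 469 TPM in shade. The mutant level in white light lay between the Col-0 levels in white light and shade. For 13 of the 18 genes every bzip59 white-light library was below every Col-0 one, beside 15.6% of all genes, and with TMM factors for 8 of the 18, beside 7.33%. The reverse in white light held for 0 of 18 with either scaling (2.76% of all genes, and 6.12% with TMM factors). In shade every mutant library was below every wild-type one for 2 of 18 (5.19% of all genes) and above for 1 (4.57%), and with TMM factors for 0 and 0 (5.43% and 5.73% of all genes). These counts use the same libraries as the interaction and break it into its parts rather than test it again. The summed green tissue and seed storage markers were also separate between the genotypes in white light, as given above. Taken singly, 2 of 6 green tissue markers had every bzip59 white-light library above every Col-0 one, and 0 below. Light-harvesting genes went the other way, with 9 of 18 below (15.6% of all genes) and 0 above (2.76%). With TMM factors 3 of 18 were below (7.33%) and 0 above (6.12%). The part of these differences in the clock difference was not tested.

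CCA1, the MYB-type morning regulator at the core of the clock, had the smallest p of the list. It stood at 49.1, 49.5 and 56.2 TPM in white-light Col-0 and fell to 33.9, 27.4 and 26.8 TPM in Col-0 shade (adjusted p = 0.0231). Levels in bzip59 were 26.5, 18.3 and 30.4 TPM in white light and 44.2, 30.2 and 43.8 TPM in shade. Mutant white-light values thus overlapped the Col-0 shade values, and the second mutant shade library was the lowest of its group. The interaction was 1.44 ± 0.60 (unadjusted p = 0.00024, adjusted p = 0.536), and 1.24 to 1.61 when any 1 library was left out.

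LHY, the partner and close relative of CCA1, fell from 44.5, 72.9 and 53.0 TPM to 41.6, 29.3 and 28.6 TPM in Col-0 (adjusted p = 0.041). In bzip59 it stood at 37.3, 32.6 and 38.3 TPM in white light and 49.1, 34.2 and 47.7 TPM in shade, and the interaction was 1.00 ± 0.64 (unadjusted p = 0.0052). LNK2, a coactivator that lets RVE proteins switch on evening genes, stood at 48.9, 53.2 and 67.8 TPM in white-light Col-0 and 32.2, 38.3 and 33.5 TPM in Col-0 shade. In the mutant it stood at 20.9, 25.1 and 27.8 TPM under white light and at 48.5, 27.3 and 51.3 TPM after shade. LNK2 was the gene of the list with the widest gap in white light, and neither genotype's shade effect passed the test (-0.68 and 0.72). Its interaction was 1.4 ± 0.68 (unadjusted p = 0.00078).

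The RVE genes, which encode MYB-like proteins, followed. RVE8 had an interaction of 1.18 ± 0.76, RVE4 of 0.88 ± 0.52 and RVE1, which links the clock to auxin synthesis, of 0.93 ± 0.67. RVE1 fell in Col-0 from 39.7, 39.6 and 42.7 TPM to 22.6, 12.7 and 11.6 TPM. In the mutant it was at 27.8, 25.6 and 30.1 TPM in white light and 24.9, 16.5 and 19.6 TPM in shade, which was lower in every shade library than in every white-light one but did not pass the test (adjusted p = 0.197). Among the pseudo-response regulators, PRR9 had an interaction of 0.71 ± 0.54 and TOC1, the evening repressor of CCA1, one of 0.43 ± 0.34. Both passed the test as falling in Col-0, by 0.75 and 0.51, and not in bzip59.

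Other clock genes moved in both genotypes. ELF4, a component of the evening complex, fell by 1.3 in Col-0 and by 1.24 in bzip59, with an interaction of 0.06 ± 0.50. PRR5 fell by 1.01 and 0.87 (interaction 0.14 ± 0.47) and FKF1, a blue-light receptor of the flowering pathway, by 1.21 and 1.04 (interaction 0.17 ± 0.48). LUX, the DNA-binding member of the evening complex, rose in both genotypes, by 0.64 and 1.06 (interaction 0.43 ± 0.44).

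**Figure D2:**
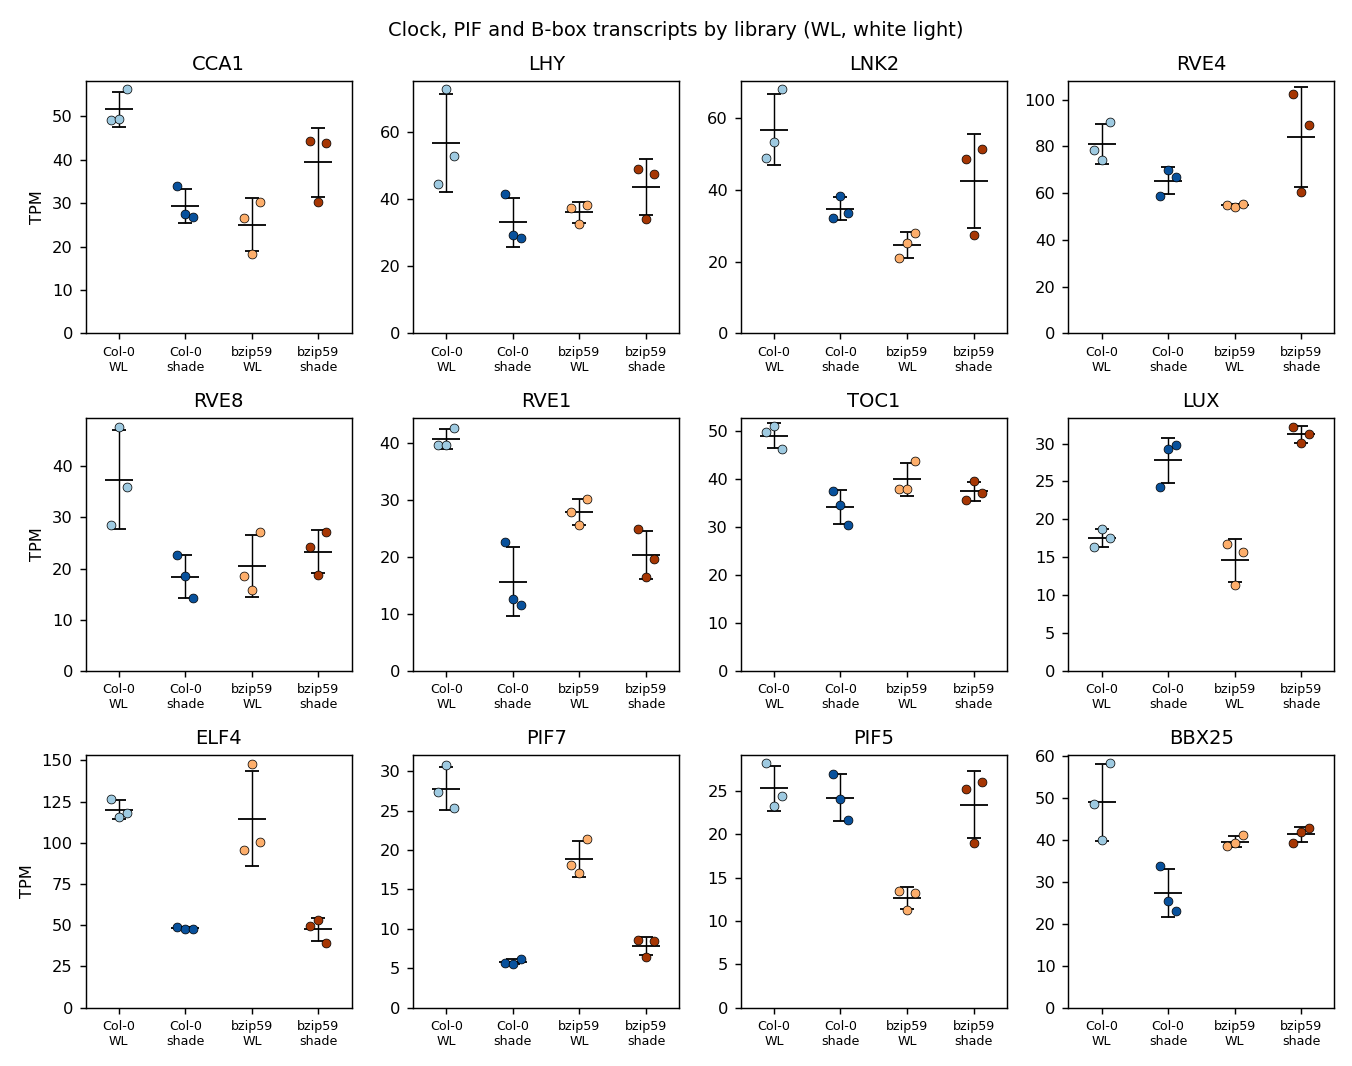
TPM of 12 genes in each library (points), with the group mean (horizontal bar) and SD (error bars), for Col-0 and bzip59 in white light (WL) and shade, 3 libraries a group; vertical axes start at 0. CCA1, LNK2, RVE4 and PIF5 are lower in every bzip59 white-light library than in every Col-0 one, whereas ELF4 overlaps between genotypes in both conditions.

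Light signalling genes came next to the clock. Of 26 genes, all tested, 24 had an interaction above 0, beside 68.4% of all genes (22 with TMM factors, beside 51.6%), and the median was 0.44 (0.29 with TMM factors). An unadjusted p under 0.05 was reached by 11, all higher, beside 6.6% of all genes (7 with TMM factors, beside 3.35%), and 0 were called. In Col-0, 13 fell and 3 rose, beside 6.5% and 3.42% of all genes. In bzip59, 7 fell and 6 rose, beside 3.7% and 6.49%, so the balance of falls and rises also differed between the genotypes over all genes. Their summed level was 719, 723 and 705 TPM in white-light Col-0 and 563, 498 and 533 TPM in Col-0 shade. In bzip59 the sums were 599, 550 and 610 TPM in white light and 566, 537 and 562 TPM in shade. As for the clock, the summed levels of the genotypes were apart in white light, where the same marker sums differed, and overlapped in shade. For 10 of 26 genes (15.6% of all genes) every bzip59 white-light library was below every Col-0 one, and for 0 (2.76%) above. With TMM factors these were 5 (7.33%) and 0 (6.12%). Unlike for the clock, in shade more genes were above, 4 of 26 (4.57% of all genes), than below, 1 of 26 (5.19%). With TMM factors these were 6 (5.73%) and 1 (5.43%).

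PIF7 encodes the PIF most closely tied to the shade response, and its transcript fell in both genotypes. It went from 27.4, 30.8 and 25.3 TPM to 5.73, 5.58 and 6.2 TPM in Col-0, a fall of 2.07 (adjusted p = 4.69e-06). In bzip59 it went from 18.1, 17.1 and 21.5 TPM to 8.61, 6.49 and 8.45 TPM, where it fell by 1.17 (adjusted p = 0.00031). The genotypes overlapped in neither condition, with the mutant lower in white light and higher in shade. The interaction was 0.90 ± 0.42 (unadjusted p = 0.00058, adjusted p = 0.536), and 0.74 with TMM factors. PIF7 overlaps a neighbouring locus in RefSeq.

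PIF5, a PIF that promotes elongation and is under clock control, showed another pattern. It stood at 28.3, 23.3 and 24.5 TPM in white-light Col-0 and at 27.0, 24.1 and 21.7 TPM in shade. In bzip59 it rose from 13.5, 11.2 and 13.3 TPM to 25.2, 19.03 and 26.1 TPM (adjusted p = 0.0041), a level that overlapped Col-0. The interaction was 0.89 ± 0.45 (unadjusted p = 0.0010). PIF4, its close relative, had an interaction of 0.08 ± 0.83 with an interval too wide to place it, and PIF3 rose in both genotypes, by 0.88 and 1.3.

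Among photoreceptors, the blue-light receptor gene CRY2 fell in Col-0 from 42.2, 42.2 and 43.4 TPM to 29.4, 33.1 and 34.6 TPM. In bzip59 it stood at 35.1, 28.5 and 29.0 TPM under white light and at 37.5, 34.8 and 33.8 TPM after shade, with an interaction of 0.58 ± 0.34 (unadjusted p = 0.0031). CRY1 (0.78 ± 0.69) and PHYE, a phytochrome gene (0.75 ± 0.55), also had an unadjusted p under 0.05. PHYA and PHYB rose in both genotypes, with interactions of 0.25 ± 0.77 and 0.27 ± 0.71. Of the bZIP proteins that act after the photoreceptors, HYH had an interaction of 0.65 ± 0.44, with falls of 1.48 in Col-0 and 0.84 in bzip59, while HY5 fell by 0.82 and 0.75 (interaction 0.07 ± 0.57). COP1 and its partners SPA1, SPA3 and SPA4, which form the ubiquitin ligase that removes HY5, had interactions of 0.48 to 0.60. The cryptochrome inhibitor genes BIC1 and BIC2 were the exceptions with an interaction below 0, at -0.40 ± 0.60 and -0.39 ± 0.63, and both fell in both genotypes.

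**Figure D3:**
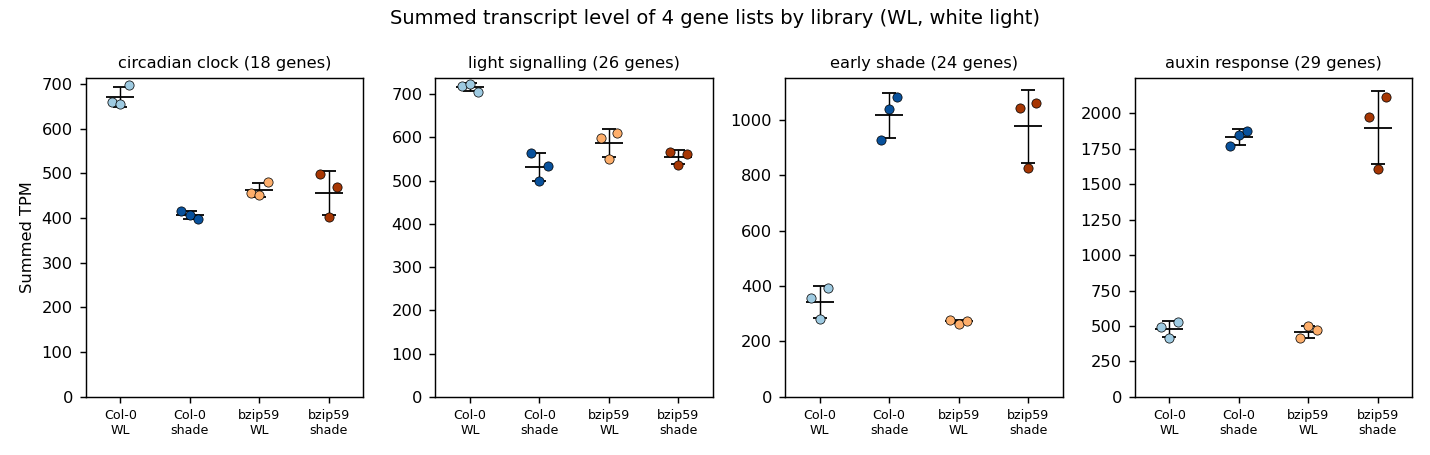
Summed TPM of the clock, light signalling, early shade and auxin response lists in each library (points), with the group mean (bar) and SD (error bars), 3 libraries a group; vertical axes start at 0. The clock sum goes from 657 to 698 down to 398 to 416 TPM in Col-0 but from 451 to 480 to 403 to 498 TPM in bzip59, while the early shade sum goes up in both.

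Gene length and single libraries moved with these lists. The interaction across all genes went with gene length (Spearman correlation 0.382 across 19618 genes with a RefSeq length, 0.143 without the second bzip59 white-light library). Removing this length trend lowered the clock median to 0.22 and the light signalling median to 0.18, beside 0.01 over all genes. The medians were then 0.36 for light harvesting, 0.29 for touch, wound and cold genes and 0.18 for brassinosteroid genes. Leaving out the second bzip59 white-light library gave 0.38 and 0.31, beside 0.08 over all genes. Leaving out both unusual shade libraries gave 0.45 and 0.54, beside 0.19 over all genes. The part of gene length in the position of these lists beyond these values was not tested.

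Hormone and growth lists were read beside the 68.4% of all genes with an interaction above 0 and the 8.01% at an unadjusted p under 0.05. With TMM factors, no member of the hormone and growth lists below reached an unadjusted p under 0.05. Brassinosteroid genes had a median interaction of 0.37 (0.23 with TMM factors), with 12 of 14 above 0 and 2 at an unadjusted p under 0.05; without the second bzip59 white-light library the median was 0.21. These were CPD, a cytochrome P450 of brassinosteroid synthesis, which rose by 0.88 in Col-0 and 1.38 in bzip59 (interaction 0.50 ± 0.44), and BES1, a transcription factor of the pathway (0.38 ± 0.34). Among genes of auxin synthesis and transport the median was 0.23 (0.12 with TMM factors), with 12 of 15 tested above 0 (11 with TMM factors). Of these genes 1 had an unadjusted p under 0.05, the auxin carrier PIN3, which rose in both genotypes (interaction 0.50 ± 0.46).

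Gibberellin genes had a median of 0.10 (-0.02 with TMM factors), with 12 of 15 tested above 0 (7 with TMM factors, beside 51.6% of all genes). The receptor gene GID1C was the 1 with an unadjusted p under 0.05 (0.53 ± 0.36, unadjusted p = 0.0079); it stood at 11.1 to 12.3 TPM in Col-0 and 7.49 to 8.65 TPM in bzip59 in white light, and at 9.28 to 11.6 and 10.5 to 11.8 TPM in shade. Ethylene genes had a median of 0.23 (0.08 with TMM factors), with 12 of 16 tested above 0 (10 with TMM factors) and none at that threshold. The xyloglucan-remodelling XTH genes had a median of -0.02 (-0.17 with TMM factors), with 6 of 12 above 0 (3 with TMM factors). Expansins, which loosen cell walls, had a median of 0.11 (-0.05 with TMM factors), with EXPA1 at 0.44 ± 0.44 (unadjusted p = 0.0477).

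The PRE genes, small helix-loop-helix proteins that promote elongation, had the lowest median of the pathway lists, on the TPM scale and with TMM factors. It was -0.35 (-0.50 with TMM factors), 4 of the 5 tested members were below 0, and none reached an unadjusted p under 0.05. PRE6 rose in both genotypes, by 2.49 in Col-0 and 2.14 in bzip59, with an interaction of -0.35 ± 0.62. PRE5, with a mean under 1 TPM, was not tested.

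The list of group I bZIP genes, bZIP59 itself included, had a median of 0.35 (0.20 with TMM factors) over the 7 of 10 members tested. VIP1, a bZIP protein that enters the nucleus on mechanical stress, stood at 48.6, 51.1 and 47.3 TPM in white-light Col-0 and at 36.8, 42.4 and 38.7 TPM in bzip59 white light, and the shade groups overlapped (45.8 to 51.2 and 45.1 to 56.5 TPM). Its interaction was 0.37 ± 0.34 (unadjusted p = 0.0367, and 0.347 with TMM factors). bZIP52 and bZIP69 rose in both genotypes, with interactions of -0.01 ± 0.36 and 0.35 ± 0.40. Of the LBD genes that act with bZIP59 in callus, LBD16 (0.27 ± 0.78) and LBD29 (-0.16 ± 1.01) were tested out of 4, both at under 5 TPM in every library.

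Light-harvesting genes, which encode the chlorophyll-binding antenna proteins, had a median of 0.36 (0.20 with TMM factors), with 16 of 18 above 0 beside 68.4% of all genes. Of the 18, 3 had an unadjusted p under 0.05, beside 8.01% of all genes, but 0 did with TMM factors, beside 6.83%. Without the first Col-0 shade library this median was 0.15, and with any 1 library left out at most 0.50. In Col-0 0 of the 18 passed the test for shade (9.92% of all genes) and in bzip59 5 rose (6.49% of all genes). LHCB2.1 stood at 1192, 820 and 1094 TPM in white-light Col-0 and at 855, 1016 and 1115 TPM in Col-0 shade. In bzip59 it rose from 621, 427 and 537 TPM to 1044, 688 and 1083 TPM, with an interaction of 0.86 ± 0.65 (unadjusted p = 0.0138). The lowest library of each shade group was the first of Col-0 and the second of bzip59, the 2 that stood apart above. Several LHCB1 and LHCB2 copies are nearly identical, so reads may be split between them.

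**Figure D4:**
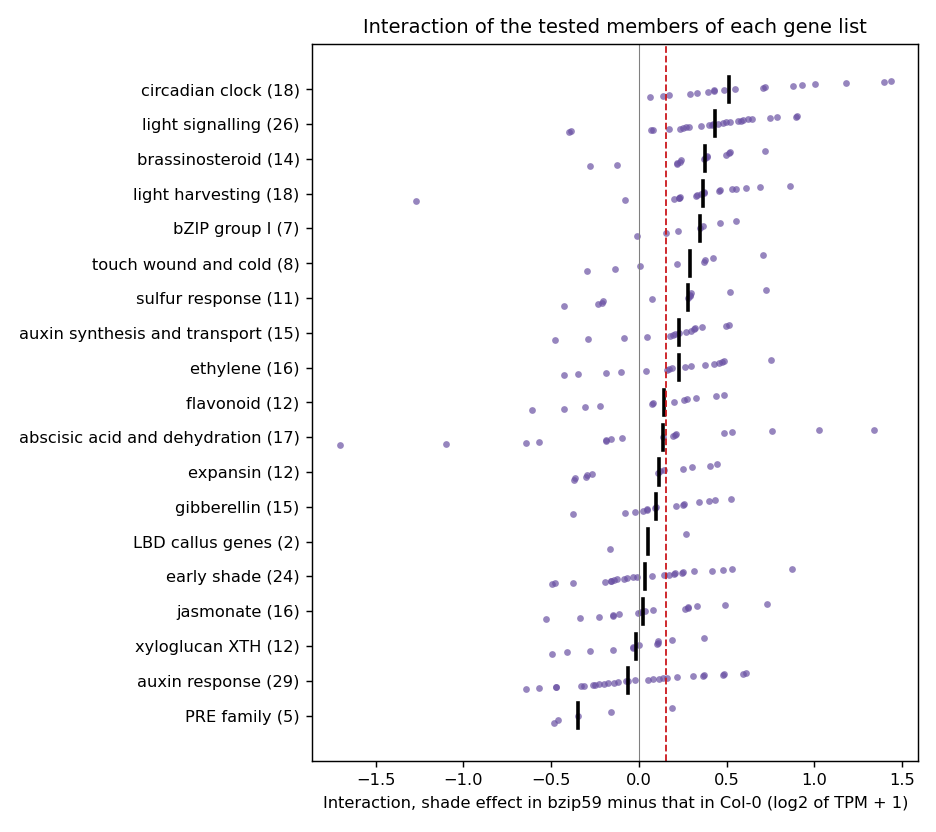
Interaction on the log2(TPM + 1) scale of each tested member (points) of the 19 pathway lists, with the list median (black bar), the median of all 19693 tested genes (red dashed line, 0.15) and 0 (grey line); the number tested is in brackets. On this scale the circadian clock and light signalling lists have the highest medians, 0.52 and 0.44, and the PRE family the lowest, -0.35. The clock is not the highest with the gene length trend removed or with quantile normalization. Nor is it the highest without the first Col-0 shade library, alone or together with the second bzip59 shade library.

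The genes with the smallest p over all genes, CCA1 and PIF7 among them, were of mixed kinds. Of the 24 genes made up of the 12 smallest p in each direction, 22 are protein-coding, and 14 passed the test for shade in Col-0 and 10 in bzip59. For 20 of the 24 the shade effect had opposite signs in the 2 genotypes, beside 6700 of all 19693 genes, as selection for a large interaction favours. For 18 of the 24 the genotypes differed more in white light than in shade, a share near the 69.6% of all genes. None passed the adjusted test, and 16 of the 24 were also in the corresponding 24 with TMM factors.

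AT4G06665, an annotated non-coding RNA, had the smallest p of all. It was listed at 1.43, 0 and 0 TPM in white-light Col-0 and at 0 in all 3 libraries of Col-0 shade and all 3 of bzip59 white light. In bzip59 shade it was at 20.1, 7.33 and 23.8 TPM. All 3 mutant shade libraries thus stood above every other library, and the interaction was 4.46 ± 1.28 (unadjusted p = 7.87e-06, adjusted p = 0.155). It passed the filter of 1 TPM only through bzip59 shade, the group that makes its interaction. Leaving out the second bzip59 shade library, the lowest of that group, brought the adjusted p to 0.0089. This was the smallest value with any 1 library left out, and over the alternatives the adjusted p was as high as 0.673. The locus overlaps BAM3, a chloroplast beta-amylase gene looked up after its values were seen, which stood at 75.1 to 342 TPM and had an interaction of 0.52 ± 1.15. Reads of the 2 transcripts cannot be told apart from these values.

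AT1G55960, a predicted lipid-binding protein of the polyketide cyclase family, fell in both genotypes and more in Col-0. It went from 157, 206 and 196 TPM to 35.3, 28.2 and 24.7 TPM in Col-0, a change of -2.63. In bzip59 it went from 104, 86.6 and 98.4 TPM to 53.9, 35.96 and 42.6 TPM, a change of -1.12. The genotypes did not overlap in either light condition, and the interaction was 1.5 ± 0.54 (unadjusted p = 6.36e-05, adjusted p = 0.417). With any 1 library left out it was 1.35 to 1.64.

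AT4G31354, a protein of unknown function, fell in Col-0 from 8.01, 9.63 and 6.25 TPM to 1.73, 3.34 and 1.4 TPM. Mutant libraries stood at 2.66, 1.99 and 2.41 TPM in white light and 3.27, 3.14 and 3.63 TPM in shade, so the mutant was already low before shade (interaction 1.91 ± 0.68, unadjusted p = 6.1e-05). SIGE, a sigma factor of the chloroplast RNA polymerase, fell in Col-0 from 41.2, 40.9 and 43.1 TPM to 18.6, 11.4 and 12.03 TPM. In bzip59 it stood at 28.3, 17.7 and 24.1 TPM in white light and 18.8, 18.6 and 19.3 TPM in shade (interaction 1.27 ± 0.58, unadjusted p = 0.00049). Both share the form seen in the clock, a fall in Col-0 from a level that the mutant did not have in white light.

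The other genes of this direction were of several forms. AtPP2-A13, a lectin-like phloem protein gene, fell in Col-0 from 41.1, 30.7 and 47.3 TPM to 27.5, 23.9 and 24.4 TPM and stood in bzip59 at 20.9, 21.5 and 21.9 TPM in white light and 35.2, 28.2 and 28.9 TPM in shade. Its interaction was 1.11 ± 0.47. CIPK1, a kinase gene of calcium signalling, fell by 0.49 in Col-0 and had a change of 0.33 in bzip59 that did not pass (interaction 0.81 ± 0.38). AT1G34630 and the helix-loop-helix gene AT5G51790 rose in bzip59, by 0.61 and 0.56, and did not pass in Col-0. AT5G46440 and AT3G26490, a BTB domain gene listed at 0.03 TPM or less in Col-0 shade, fell in Col-0 and did not pass in bzip59.

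In the lower direction SAUR76, a small auxin-up RNA gene, had the smallest p. It rose in Col-0 from 1.88, 1.78 and 1.70 TPM to 6.65, 9.42 and 12.7 TPM (adjusted p = 0.00019). The bzip59 libraries gave 3.04, 3.75 and 3.08 TPM in white light and 4.17, 5.86 and 4.09 TPM in shade (adjusted p = 0.232). The mutant was higher in every library before shade and lower in every library after it, and the interaction was -1.49 ± 0.63 (unadjusted p = 0.00027, adjusted p = 0.536). It was -1.28 to -1.70 with any 1 library left out.

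CSN1, a subunit of the COP9 signalosome that controls ubiquitin ligases in light signalling, stood at 7.10, 10.7 and 7.50 TPM in white-light Col-0 and 10.5, 9.26 and 8.33 TPM in Col-0 shade. In bzip59 it fell from 9.72, 11.4 and 9.29 TPM to 4.08, 5.14 and 4.86 TPM (adjusted p = 0.0032). Its shade groups were separate and its white-light groups overlapped, which made it 1 of the 6 genes among the 24 that differed more in shade; the interaction was -1.11 ± 0.50 (unadjusted p = 0.00042). AT1G45248 and AT1G48280 likewise fell in bzip59, by 1.02 and 1.59, and did not pass in Col-0. RABA4C, a small GTPase of vesicle traffic (-0.97 ± 0.52), RTM3, a gene restricting virus movement (-1.18 ± 0.65), and AT5G24750, a sugar transferase (-1.5 ± 0.80), had higher means in bzip59 than in Col-0 before shade.

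**Figure D5:**
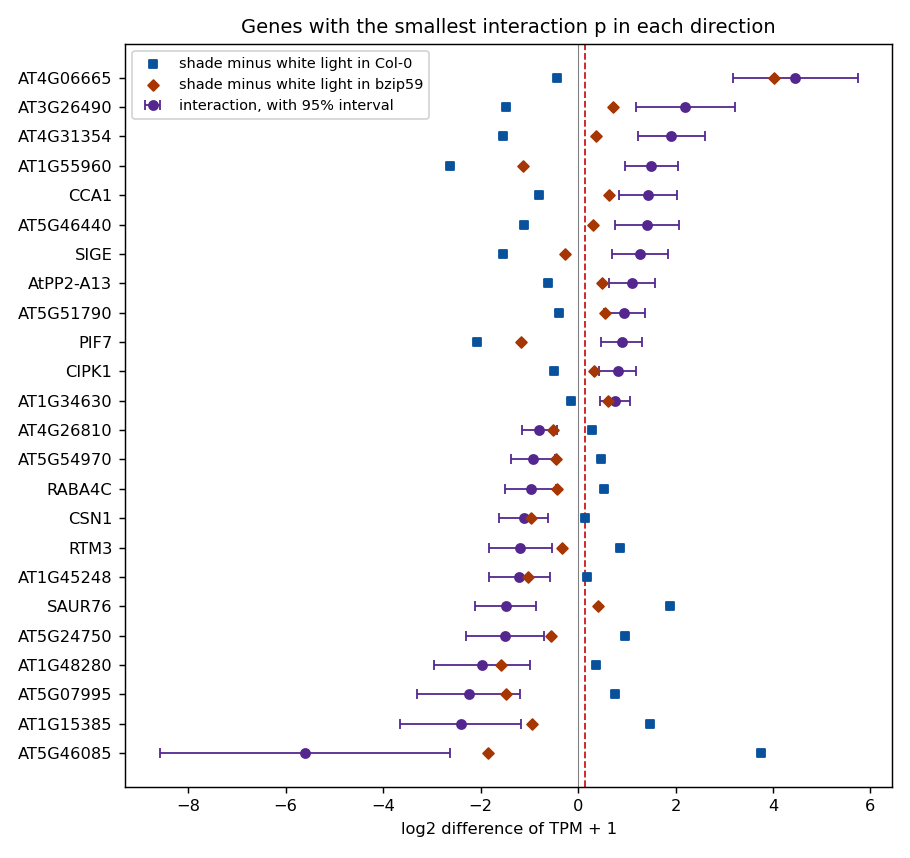
The 12 genes with the smallest interaction p in each direction: interaction (circles, with 95% intervals) and the shade effect in Col-0 (squares) and in bzip59 (diamonds), all as log2 differences of TPM + 1; the red dashed line is the median interaction of all genes, 0.15. Col-0 and bzip59 effects lie on opposite sides of 0 for 20 of the 24 genes, and PIF7, AT1G55960, SIGE and SAUR76 are the 4 with the same sign in both.

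The largest interactions among shade-called genes belonged to transcripts of few TPM or listed at 0 in some libraries. Of the 226 genes called for shade in either genotype with an unadjusted p under 0.01, AT3G04165, a small nucleolar RNA, had the largest, -5.82 ± 3.95. It was listed at 39.9, 0 and 0 TPM in Col-0 white light, at 64.4 to 199.7 TPM in Col-0 shade and at 14.7 to 153 TPM over the 6 bzip59 libraries. AT5G46085 was at 0 in all Col-0 white-light libraries and at 10.7, 12.9 and 14.1 TPM in Col-0 shade; in bzip59 it was at 20.4, 0 and 11.9 TPM in white light and 0, 4.96 and 0 TPM in shade (interaction -5.60 ± 2.98). The wide intervals reflect libraries of 1 group that lay far apart. The RNA was selected by its poly(A) tails, per the labels' protocols, and short RNAs without such tails are captured unevenly by that step.

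Of the others, AT1G24800, an F-box gene (interaction -2.22 ± 1.55), and AT1G15385 (-2.41 ± 1.24) rose in Col-0 and did not pass in bzip59. AT2G47020, a peptide chain release factor gene, was at 0 to 1.51 TPM in the Col-0 libraries and rose in bzip59 from 0, 0.57 and 0.19 TPM to 2.23, 3.91 and 3.84 TPM (2.07 ± 1.06). AT2G24545 and AT3G01635, non-coding RNAs, fell in Col-0 (2.31 ± 1.52 and 2.18 ± 1.53); AT3G01635 was at 0 in all 6 bzip59 libraries, so its interaction holds the Col-0 change only. AT5G07995, another non-coding RNA, fell in bzip59 (-2.24 ± 1.06).

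Across all genes, the contrast came more from white light than from shade. The absolute genotype difference was larger in white light for 13701 of all genes (69.6%) and for 1295 of the 1577 genes with an unadjusted interaction p under 0.05 (82.1%). With TMM factors the shares were 64.2% and 77.1%, and without the second bzip59 white-light library they were 62.2% and 75.8%. The 1299 genes of the higher direction had a median genotype difference of -0.42 in white light and 0.16 in shade, and the 278 of the lower direction 0.43 and -0.25. Genes of the higher direction were also longer, with a median gene length of 2754 bases against 2316 over all genes and 1227 in the lower direction.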

How the data were processed

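Whole-seedling RNA was profiled in 12 libraries, 3 per group. The authors deposited TPM per transcript, and the submitters' processing notes name fastp, cutadapt, HISAT2, DESeq2 and the TAIR10 build; the tool that gave TPM and the use of strand are not given in the sources used here. TPM of 54013 transcripts were summed per gene; 32548 of 32833 genes matched RefSeq (TAIR10.1), used for names, lengths and gene order. Genes averaging 1 TPM or more were fitted as 4 group means on log2(TPM + 1) with limma 3.58.1 in R 4.3.3 (empirical Bayes with an intensity trend, checked on simulated data), Benjamini-Hochberg adjusted; fold changes on this scale understate those of low genes. All p-values are two-sided. Figures used Python 3.11.15 and matplotlib 3.10.9.

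The 19 pathway lists (296 entries, 286 genes, 267 tested), 4 marker lists and the choice of this contrast were made with earlier results of these data known; lists are described by counts and medians. Named genes were bZIP59, the 12 smallest p in each direction, the 10 largest interactions among shade-called genes with p under 0.01, any gene called in opposite directions and 3 per list by p; other members are named to describe their list. 28 of the 81 so named overlap another locus in RefSeq. A planned motif count in promoters was not run, and no sequences were used here. Alternatives covered pseudocounts, low-value filters, scalings, model options, a replicate block and leaving out each library; length correction, protein-coding genes only and 2 joint exclusions were added after seeing the data.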

Additional observations from a re-analysis of the deposited data

How the results depend on the processing

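The count of called interactions was 0 in the main analysis and 0 at an adjusted p under 0.1. Among 25 alternatives, calls appeared in 8: 2 lower with no filter on low values, 2 lower without Col-0 white light replicate 3, 1 higher and 1 lower without Col-0 shade replicate 1, 1 lower without bzip59 white light replicate 1, 1 lower without bzip59 white light replicate 2, 1 higher and 3 lower without bzip59 shade replicate 2, 1 lower with TMM factors and without bzip59 white light 2, and 2 higher and 5 lower with both Col-0 shade 1 and bzip59 shade 2 left out. These are 13 different genes; PDF1.2A, MIR2936 and SNOR108 aside, each was listed at 0 in 8 to 10 of the 12 libraries, and the cause was not tested. Leaving out 1 library thus gave 0 to 1 higher and 0 to 3 lower calls.

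The median interaction was 0.011 with TMM factors, 0.017 with quantile normalization, 0.0068 with the gene length trend removed and -0.0015 with TMM factors and without bzip59 white light 2, and 0.0764 to 0.214 with 1 library left out. Higher genes were 82.4% of those at an unadjusted p under 0.05, against 49.1% with TMM factors. The correlation of the shade effects across genes, 0.633, became 0.520 and 0.600 with pseudocounts of 0.1 and 0.5, 0.598 with no filter, 0.694 at a mean of at least 5 TPM, 0.661 with the length trend removed, 0.720 over protein-coding genes, 0.595 with both shade libraries left out and 0.577 to 0.651 with 1 library left out. 79 of 81 named genes kept their sign in every alternative that gave a value; XTH23 became -0.012 with quantile normalization, and LBD29 0.028 and 0.071 in 2 of the fits with 1 library left out (lowest -0.587) and 0.034 with both shade libraries left out. The LBD list gave no value at a mean of at least 5 TPM.

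Replicate numbers were not taken as pairing the libraries, since the labels state no pairing: correlations of same-numbered libraries' deviations ran from -0.146 to 0.248 over 18 pairs, 3 of them over 0.1, although 9 of 12 libraries correlated best with their own number. With the replicate block 0 genes were called, with 1404 higher and 328 lower at an unadjusted p under 0.05.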

Other observations

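The dehydration and cold genes had a median interaction of 0.14 over 17 of 18 members tested, with 9 above 0, beside 68.4% of all genes. Of the 17, 0 were called and 3 had an unadjusted p under 0.05, beside 8.01% of all genes (2 with TMM factors, beside 6.83%). That median turned to -0.17 without the second bzip59 shade library and became 0.42 without the first Col-0 shade library. HAB1, a phosphatase gene that restrains abscisic acid signalling, was the first of these: it fell in Col-0 from 23.9, 30.4 and 23.9 TPM to 20.0, 17.4 and 15.3 TPM, and stood in bzip59 at 19.01, 16.1 and 19.04 TPM in white light and 22.6, 20.0 and 20.6 TPM in shade (interaction 0.76 ± 0.42, unadjusted p = 0.0021). COR15A, a cold-induced chloroplast protein gene, stood at 115, 4.91 and 9.28 TPM in Col-0 shade and at 2.32, 156 and 1.27 TPM in bzip59 shade, so its interaction of -0.64 ± 4.36 could not be placed. RD29A and KIN2, also induced by drought and cold, were high in the same 2 libraries, at 80.3 and 860 TPM in the first Col-0 shade library and at 75.9 and 769 TPM in the second bzip59 shade library.

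Sulfur-deficiency genes fell in shade in both genotypes, 9 of 11 tested in Col-0 (6.5% of all genes) and 8 in bzip59 (3.7%). Their median interaction of 0.28 became -0.24 without the second bzip59 shade library and 0.55 without the first Col-0 shade library. Flavonoid genes had a median of 0.14 over 12 tested, jasmonate genes 0.02 over 16 and touch, wound and cold genes 0.29 over 8. Without the same 2 libraries in turn, the flavonoid median was -0.07 and 0.43 and the jasmonate median -0.09 and 0.33. Within these, JAZ2, a repressor of jasmonate signalling, fell in Col-0 by 0.67 and had an interaction of 0.49 ± 0.44 (unadjusted p = 0.0311), the 1 member of the 3 lists under that threshold. With TMM factors the unadjusted p of JAZ2 was 0.0532. Seed storage markers had a median of -1.39 over 8 tested, with SESA3 and SESA2 at an unadjusted p under 0.05; SESA3, a seed albumin gene, stood at 0 to 0.32 TPM in Col-0, at 13.3, 1.69 and 5.75 TPM in white-light bzip59 and at 0.81, 0.85 and 0.09 TPM in bzip59 shade.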
